A study of Saccharomyces cerevisiae with 8 samples.

Results

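The response of budding yeast to clioquinol was measured with cultures treated with another compound, the thione 11, as the control in place of the solvent. The 4 libraries compared, of 8 in the series, were chosen by their labels, 2 treated with 0.8 µM clioquinol (CQ) and 2 treated with 20 µM thione 11, which the labels call inactive. A further 2 libraries, from cultures given only the DMSO solvent, served to sort the changes into those that remained and those that vanished when the control was exchanged. Every culture was Saccharomyces cerevisiae W303 with PDR1 and PDR3 deleted, grown in complete synthetic medium with galactose at 30 °C and treated for about 6 h. The controls therefore lack PDR1 and PDR3 too, the transcription factors that switch on many drug-efflux pumps, and both genes had 0 counts in every library. CQ and thione 11 were given for the same time but at different doses, so no matched-dose comparison exists.

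CQ is an 8-hydroxyquinoline that binds transition metal ions. When iron is scarce, the yeast transcription factors Aft1 and Aft2 enter the nucleus and switch on genes for the capture, reduction and transport of iron, many of which carry the letters GCACCC upstream. Iron-poor cells also lower the mRNAs of many enzymes that hold haem or iron-sulfur clusters, in part through Tis11 (Cth2), which binds such mRNAs and speeds their decay. Mac1 plays a like role for copper and Zap1 for zinc.

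The 8 libraries held 12076141 to 19021672 counts, and 6046 to 6136 features had at least 1 count. Replicates are biological per the series design. The CQ pair was the least alike, with a chi-square per degree of freedom of 95.6 against 41.7 for thione 11 and 21.4 for DMSO. On the first principal component, which held 60.2% of the variance, the CQ libraries stood at 45.4 and 34.9 and the other 6 libraries at -15.3 to -11.8. Markers of α cells had a summed level of 544 to 861 CPM (counts on a common library scale, set with TMM) in CQ, 1063 to 1095 CPM in thione 11 and 1503 to 1844 CPM in DMSO. The part of these markers in the changes below was not tested. The 6 a-cell markers summed to 25.3 to 34.3 CPM, and the 4 galactose genes to 18010 to 28010 CPM.

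With thione 11 as control, 762 of 5696 tested features passed the threshold, an adjusted p under 0.05 in edgeR's quasi-likelihood test (13.4% of features). Of these, 184 (3.23%) were higher and 578 (10.1%) lower in CQ, and 93 and 331 of them differed by at least 2-fold. With DMSO as control, 758 features passed (13.3%), 280 higher (4.92%) and 478 lower (8.39%). The 2 comparisons share the CQ libraries. Their difference is the contrast of thione 11 with DMSO, in which 9 features passed (0.158%), 8 higher in thione 11 (0.14%) and 1 lower (0.0176%), while 739 had an unadjusted p under 0.05. The median log2 difference over all features was 0.03 in each of the 3 contrasts.

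Of the 758 changes seen against DMSO, 544 remained against thione 11 with the same sign (9.55% of tested features), 213 vanished in that they no longer passed (3.74%), and 1 reversed (0.0176%). Of the falls, 402 of 478 remained (84.1%), and of the rises, 142 of 280 (50.7%). Another 217 features (3.81%) passed only against thione 11, 42 of them higher and 175 lower in CQ. Large changes were mostly kept. Among calls with a log2 change under 1 against DMSO, 205 of 346 remained (59.2%), from 1 to 2 it was 217 of 285 (76.1%), from 2 to 3 it was 59 of 62 (95.2%), and from 3 upwards 63 of 65 (96.9%).

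Of the 213 calls that vanished, 3 passed in the contrast of thione 11 with DMSO. The 137 vanished rises had a median log2 change of 0.80 against DMSO and 0.38 against thione 11, and 128 of them kept a positive sign. The 76 vanished falls had medians of -0.82 and -0.49, and 75 kept a negative sign. The counts also depended on single libraries. Without DMSO replicate 1 or 2, 367 or 404 features passed against DMSO, 340 or 334 remained and 27 or 70 vanished. Without CQ replicate 2, 1419 passed against DMSO, 888 remained, 530 vanished, and 432 were higher than in thione 11. Without thione 11 replicate 2, 458 passed against thione 11 (100 higher, 358 lower), and 41 of those only there, and without thione 11 replicate 1, 114 were higher. The contrast of thione 11 with DMSO gave 1 call without either DMSO library, 3 without thione 11 replicate 2, 4 without either library of the active thione 10{3,3,1} and 18 without either CQ library. Of the 213 vanished calls, 8 kept that class in all 8 omissions of a library, as did 276 of the 544 that remained. Of 37 vanished genes followed singly, 27 lost the call against DMSO in at least 1 omission.

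**Figure D1:**
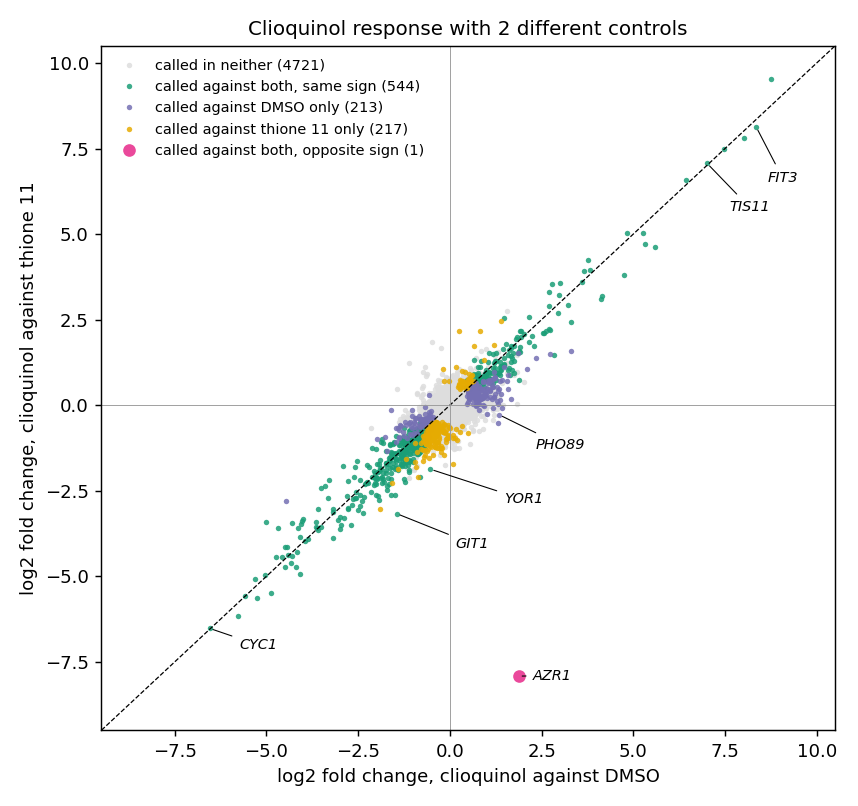
Each point is 1 of 5696 tested features, with its log2 fold change in clioquinol against DMSO on the x axis and against thione 11 on the y axis, coloured by the comparison in which it passed. Both axes share the clioquinol libraries, so points near the dashed line of equal change are no separate support. The 544 features called against both controls reach both ends, the 213 and 217 called against 1 control mostly lie nearer the centre, with 5 of the 213 at a log2 change of 2 or more in size against DMSO, and AZR1 lies alone at the lower right.

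The genes of iron capture remained nearly whole. Of 34 tested members of the Aft1/Aft2 lists, 30 rose and 1 fell against thione 11 and 31 rose and 1 fell against DMSO. In all 31 remained, 1 vanished and 2 passed in neither. The shares of all features that rose were 3.23% against thione 11 and 4.92% against DMSO. The next paragraphs take these same 34 genes list by list, so their counts are no further results and stand beside the same shares. Over the 8 omissions of a library, 29 to 31 rose against thione 11 and 26 to 31 against DMSO. The median log2 difference of the 34 was 2.88 against thione 11 and 2.65 against DMSO, beside 0.03 over all features. The genes of few counts, LSO1 and FRE5, cannot move the median against thione 11. They stay above it with LSO1 at its counting limit and FRE5 at its ratio of summed counts. The GCACCC letters, searched on both strands, occur in the 300 bases before the start codon of 19 of the 34 (55.9%), against 245 of 6007 such windows of the genome (4.08%). Among rises that remained, 37 of 141 windows held them (26.2%), and among rises that vanished, 9 of 137 (6.57%). The 37 include all 19 of the lists, so these shares are not separate. The lists name known Aft targets, so their own share is no test of the motif. The stretches from 300 to 101 bases before the start codon are shown 5′ to 3′ on the gene's strand for genes with large rises against both controls, with GCACCC and its reverse complement in capitals (RefSeq, assembly R64).
FIT2: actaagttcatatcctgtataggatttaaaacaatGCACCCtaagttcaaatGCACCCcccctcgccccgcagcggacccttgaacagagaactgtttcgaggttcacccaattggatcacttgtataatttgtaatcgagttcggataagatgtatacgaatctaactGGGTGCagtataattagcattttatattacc
FIT3: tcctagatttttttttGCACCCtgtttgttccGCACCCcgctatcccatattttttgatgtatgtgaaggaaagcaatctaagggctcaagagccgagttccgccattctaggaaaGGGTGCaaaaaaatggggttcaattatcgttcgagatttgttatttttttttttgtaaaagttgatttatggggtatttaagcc
TIS11: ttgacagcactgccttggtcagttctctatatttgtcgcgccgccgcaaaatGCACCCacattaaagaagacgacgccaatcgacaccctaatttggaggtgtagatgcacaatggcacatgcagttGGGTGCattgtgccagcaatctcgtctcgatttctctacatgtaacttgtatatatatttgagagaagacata
They lie at XV:1059231-1059430, plus strand for FIT2, XV:1061156-1061355, minus strand for FIT3 and XII:416759-416958, minus strand for TIS11. The FIT2 and FIT3 stretches each hold 3 matches and that of TIS11 holds 2. A match is a run of letters and not a measured binding site. GCACCC is absent from the 300-base windows of ARN2, FRE1, FRE2, FRE3, FRE4 and HMX1, which also rose against both controls.

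Cell-wall mannoproteins that retain siderophores, the iron carriers secreted by microbes, had some of the largest rises. FIT3 (chromosome XV, 1060441 to 1061055) had 5720 and 4807 CPM in CQ, 14.5 and 23.1 CPM in thione 11 and 14.6 and 17.7 CPM in DMSO. Both CQ libraries lay far above the other 4, which overlapped each other, and the log2 difference was 8.13 ± 0.495 (SE) against thione 11 (adjusted p = 4.33e-06, edgeR). FIT2 had 2300 and 1807 CPM in CQ against 8.02 and 10.4 CPM in thione 11, a log2 difference of 7.80, and FIT1 had 113 and 88.6 CPM against 4.94 and 9.54 CPM. In bulk RNA, a larger share of responding cells and more RNA per cell cannot be told apart.

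All 4 siderophore transporters of the list rose against both controls. ARN2 had 1314 and 1330 CPM in CQ, 13.8 CPM in each thione 11 library and 14.9 and 15.5 CPM in DMSO, a log2 difference of 6.58 ± 0.249 from thione 11 (adjusted p = 2.43e-07, edgeR). ARN1, SIT1 and ENB1 differed by 5.02, 4.72 and 5.03 on the log2 scale. For SIT1 the thione 11 libraries, at 39.4 and 62.7 CPM, both lay above the DMSO libraries, at 33.5 and 34.6 CPM, and that difference did not pass (adjusted p = 0.382).

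Metalloreductases, of which several at the cell surface turn ferric into ferrous iron, rose in all 6 cases. FRE5 had 1846 and 1104 counts in CQ and 0 and 3 counts in thione 11, so its ratio of 817 is known only between 279 and 3963 from counting error alone (exact 95% interval). FRE1 and FRE2, the main surface reductases, differed from thione 11 by 4.25 and 3.94 on the log2 scale, and FRE3, FRE4 and FRE6 by 3.61, 3.56 and 2.08. FRE1 had 17.5 and 15.0 CPM in thione 11 and 24.1 and 21.2 CPM in DMSO, which do not overlap, although the difference did not pass (adjusted p = 0.344).

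The high-affinity uptake pair of FET3, a multicopper oxidase, and FTR1, its permease, rose together with the copper-delivery genes CCC2 and ATX1. FET3 had 3604 and 3451 CPM in CQ, 239 and 228 CPM in thione 11 and 285 and 276 CPM in DMSO. Its log2 difference from thione 11 was 3.92 ± 0.167, and that of FTR1 was 3.23 ± 0.162. CCC2, which pumps copper into the secretory pathway, differed by 3.32 and the copper chaperone ATX1 by 1.52. The values of all 4 in thione 11 lay below those in DMSO, and none of the 4 passed in that contrast.

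The list of vacuolar, organelle and low-affinity metal transporters rose in all 6 cases, by 1.29 to 2.11 on the log2 scale. The vacuolar iron exporters FTH1, FET5 and SMF3 differed from thione 11 by 2.11, 1.29 and 1.61, and the mitochondrial iron carrier MRS4 by 1.99. Of the other Aft targets, TIS11 (chromosome XII, 415801 to 416658) had 263 and 281 CPM in CQ, 1.50 and 2.53 CPM in thione 11 and 1.84 and 2.42 CPM in DMSO, and differed by 7.07 ± 0.294 (adjusted p = 3.99e-07, edgeR). HMX1, the haem oxygenase, had 279 and 398 CPM in CQ, 72.5 and 44.1 CPM in thione 11 and 142 and 102 CPM in DMSO, so its log2 difference was 2.54 against thione 11 and 1.47 against DMSO. The contrast of thione 11 with DMSO for HMX1, -1.07, did not pass (adjusted p = 0.261).

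LSO1 had 35 and 16 counts in CQ and 0 in all 4 control libraries, which makes it at least 14.1-fold higher than in thione 11, taking 3 counts over both control libraries as the limit. ISU2, a scaffold for iron-sulfur clusters, was the member that vanished, with a log2 difference of 1.20 against DMSO and 0.98 against thione 11 (adjusted p = 0.0806). ISU1, its paralogue, passed against both at 0.80 and 0.69, but was lost against thione 11 in 4 of the 8 omissions, with an adjusted p of 0.309 without thione 11 replicate 2. BIO5, a transporter for a biotin precursor, fell by 1.97 on the log2 scale. GRX3 and LEE1 passed in neither comparison.

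**Figure D2:**
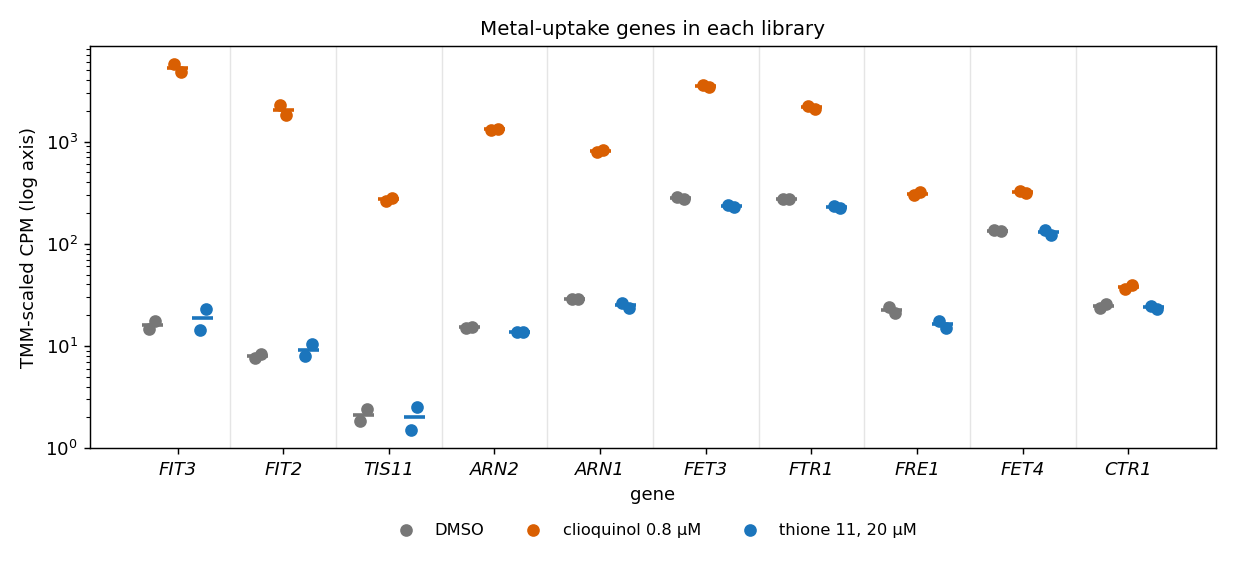
Points give the TMM-scaled CPM of each of 2 libraries per group on a log axis, and short lines the group mean, for 10 metal-uptake genes. The clioquinol points lie above both control groups for all 10 genes, from FIT3 with 5720 and 4807 CPM to CTR1 with 35.8 and 39.8 CPM.

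Genes of copper and zinc moved in both directions. Of 6 Mac1 targets, FRE1 and CTR1 rose against both controls and the others passed in neither. Over all features, 3.23% were called higher than in thione 11 and 4.92% higher than in DMSO. FRE1 is also counted among the metalloreductases above. The other 4 targets lay below 0 against thione 11, where the list's median log2 difference was -0.22 and DESeq2 called 1 lower. CTR1, the high-affinity copper transporter, had 35.8 and 39.8 CPM in CQ, 24.8 and 23.2 CPM in thione 11 and 23.5 and 25.9 CPM in DMSO, a log2 difference of 0.65 from thione 11 that was lost without either thione 11 library (adjusted p = 0.0766 and 0.14). Its call against DMSO was lost in 4 of the 8 omissions, with adjusted p of 0.266 and 0.111 without DMSO replicate 1 and 2. CRS5, a metallothionein, was lower than in thione 11 by 0.80 on the log2 scale and not called against DMSO. That call was lost in 6 of the 8 omissions of a library, with an adjusted p of up to 0.228.

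Among 26 Zap1 targets, 1 rose and 8 fell against thione 11, and 4 rose and 6 fell against DMSO, beside 13.4% and 13.3% of all features called in either direction. Against DMSO, 1 rose when DMSO replicate 1 was left out and 2 when it was DMSO replicate 2 or CQ replicate 1, and against thione 11, 2 rose without CQ replicate 1 and 3 without CQ replicate 2. FET4, a low-affinity transporter of iron and other metals, remained, with log2 differences of 1.30 and 1.25. ZAP1 itself fell by 1.36 against thione 11 and by 1.23 against DMSO. The zinc transporter ZRT1 vanished, with a log2 difference of 0.62 against DMSO and 0.29 (95% interval -0.08 to 0.66) against thione 11. ATG41 and NRG2, which rose against DMSO, vanished too, as did the fall of ZRT2. The call against DMSO was lost in 6 of the 8 omissions for ZRT1 (adjusted p of up to 0.204), in 3 for ATG41 and ZRT2 and in 1 for NRG2. The list's median log2 difference was 0.04 against thione 11.

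Most of the largest falls were in genes of respiration. Of 37 tested subunits and enzymes of oxidative phosphorylation, 35 fell against thione 11 and 35 against DMSO, beside 10.1% and 8.39% of all features. In all 34 remained, ATP18 vanished, NDE1 passed only against thione 11 and ATP15 passed in neither, the last 3 named after their values were seen. The call of NDE1 was lost in 7 of the 8 omissions (adjusted p of up to 0.153) and that of ATP18 against DMSO in 5 (up to 0.144). Over the 8 omissions, 34 to 36 fell against thione 11. The median log2 difference was -3.27 against thione 11 and -3.59 against DMSO. CYC1, cytochrome c, had 1.40 and 0.939 CPM in CQ, 121 and 98.6 CPM in thione 11 and 111 and 114 CPM in DMSO. Its difference from thione 11 was -6.52 ± 0.225 on the log2 scale (adjusted p = 2.1e-07, edgeR).

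Cytochrome c1 (CYT1), the Rieske iron-sulfur protein (RIP1) and QCR7, all of the cytochrome bc1 complex, fell by 5.59, 5.08 and 4.61 on the log2 scale against thione 11. The iron-sulfur subunit of succinate dehydrogenase, SDH2, had 17.9 and 15.1 CPM in CQ, 676 and 797 CPM in thione 11 and 429 and 533 CPM in DMSO. Here the control groups did not overlap, and the log2 difference was -5.48 against thione 11 and -4.86 against DMSO, while thione 11 against DMSO did not pass (0.62, adjusted p = 0.344). SDH4, a membrane anchor of the same enzyme, showed the same order of groups, with 10.2 and 6.64 CPM in CQ, 225 and 297 CPM in thione 11 and 128 and 162 CPM in DMSO. COX26, a subunit of cytochrome c oxidase, and CIR2, a putative mitochondrial oxidoreductase, fell by 6.15 and by 5.63 on the log2 scale against thione 11.

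The CCAAT letters, the core of the site of the Hap2/3/4/5 activator of respiratory genes, occur on either strand in the 300 bases before the start codon of 32 of the 37 respiratory genes (86.5%), against 2510 of 6007 windows of the genome (41.8%). None of the 37 holds GCACCC. The windows of CYC1, COX26 and CYT1, all with large falls, and of COX4 and COR1 hold no CCAAT. Among falls that remained, 211 of 399 windows held CCAAT (52.9%), and among falls that vanished, 30 of 73 (41.1%). The falls that remained include 34 of the respiratory genes, so these shares are not separate from that of the list. The stretch of SDH2 from 300 to 101 bases before its start codon (XII:54032-54231, minus strand, RefSeq, assembly R64) holds CCAAT 2 times, once on each strand, shown in capitals.
SDH2: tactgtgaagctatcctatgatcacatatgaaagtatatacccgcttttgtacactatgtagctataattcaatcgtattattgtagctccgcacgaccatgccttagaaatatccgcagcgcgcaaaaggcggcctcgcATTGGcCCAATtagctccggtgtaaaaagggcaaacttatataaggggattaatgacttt

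Iron-using enzymes outside the respiratory chain fell in 26 of 32 cases against thione 11 and in 27 against DMSO. Among all features, 10.1% and 8.39% fell. The medians of these enzymes were -2.13 and -2.04 on the log2 scale. Aconitase (ACO1) had 24.5 and 29.8 CPM in CQ, 690 and 755 CPM in thione 11 and 555 and 670 CPM in DMSO, a log2 difference of -4.74 ± 0.213 from thione 11. LEU1, an iron-sulfur enzyme of leucine synthesis, differed by -4.40 and CCP1, the haem enzyme cytochrome c peroxidase, by -4.29. OLE1, the fatty acid desaturase, was the member that vanished, with -1.22 against DMSO and -0.50 against thione 11 (adjusted p = 0.208), and it was named after its values were seen. Its difference from DMSO was -1.365 to -1.119 over the 8 omissions of a library, and that call did not hold in every one. Its levels were 2595 and 2153 CPM in CQ, 3939 and 2775 CPM in thione 11 and 5894 and 5136 CPM in DMSO, so thione 11 lay between the other groups.

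Of 22 genes of the TCA cycle, 16 fell against each control and 14 of those were shared. The shares of all features that fell were 10.1% against thione 11 and 8.39% against DMSO. CIT2, a peroxisomal citrate synthase, and SDH1 differed from thione 11 by -2.76 and -4.72 on the log2 scale. MDH2, the cytosolic malate dehydrogenase, had 175 and 192 CPM in CQ, 188 and 195 CPM in thione 11 and 272 and 316 CPM in DMSO. CQ and thione 11 overlapped for MDH2, with a difference of -0.06 (95% interval -0.40 to 0.28), and it was chosen after its values were seen. Its log2 difference from DMSO was -0.79 to -0.572 over the 8 omissions of a library, and that call did not hold in every one. Haem synthesis fell in 6 of 8 genes, with HEM15, the ferrochelatase, lower by 3.89 and HEM13, coproporphyrinogen oxidase, by 3.06 on the log2 scale.

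**Figure D3:**
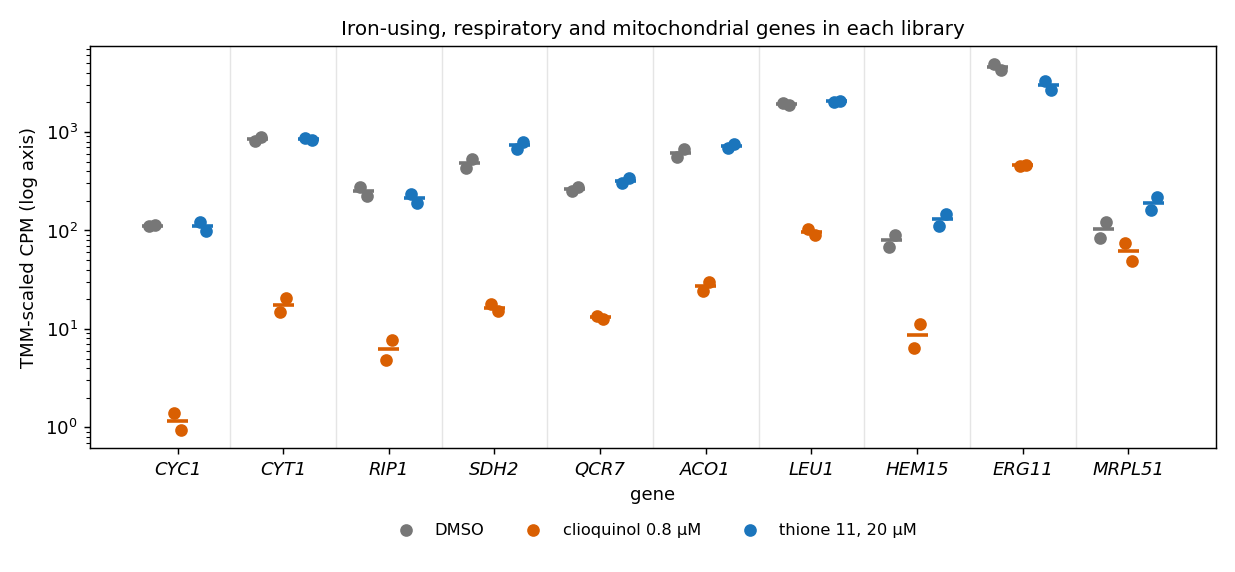
Points give the TMM-scaled CPM of each of 2 libraries per group on a log axis, and short lines the group mean, for 10 genes. CYC1 lies at 1.40 and 0.939 CPM in clioquinol against 121 and 98.6 CPM in thione 11, ERG11 in thione 11 lies between clioquinol and DMSO, and MRPL51 is separated from thione 11 more than from DMSO.

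In ergosterol synthesis, fewer falls passed with thione 11 as control. Of 26 genes, 10 fell and 2 rose against thione 11, where 15 fell and 2 rose against DMSO. Among all features, 10.1% fell against thione 11 and 8.39% against DMSO. The list's median log2 difference was -0.53 against thione 11 and -0.84 against DMSO. ERG11, the haem-containing lanosterol demethylase, had 455 and 460 CPM in CQ, 3303 and 2654 CPM in thione 11 and 4874 and 4287 CPM in DMSO. The groups did not overlap, and ERG11 remained at -2.70 ± 0.219 against thione 11 and -3.32 ± 0.225 against DMSO. ERG5, another haem enzyme, differed by -2.42 and -3.51. The 5 members that vanished, named after their values were seen, were ERG10, ERG8, MVD1, IDI1 and ERG20 of the early steps to farnesyl diphosphate. MVD1 had 222 and 235 CPM in CQ, 397 and 306 CPM in thione 11 and 654 and 500 CPM in DMSO, and its log2 difference went from -1.34 to -0.62 (adjusted p = 0.0952). For none of these 5 did thione 11 differ from DMSO past the threshold. The regulator UPC2 and the reductase NCP1 rose against both controls, but NCP1 was lost against thione 11 without CQ replicate 1 or either thione 11 library (adjusted p = 0.0623 to 0.16). Over the 8 omissions, 7 to 10 ergosterol genes fell against thione 11 and 2 to 9 calls vanished, 2 without DMSO replicate 1, 8 without CQ replicate 2 and 9 without thione 11 replicate 1.

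Drug-efflux genes held the only reversal. AZR1 (chromosome VII, 942806 to 944647), a plasma-membrane transporter known for azole resistance, had 1.67 and 2.41 CPM in CQ, 428 and 552 CPM in thione 11 and 0.486 and 0.625 CPM in DMSO. The 3 groups did not overlap, and thione 11 lay far above the others. CQ was thus higher than DMSO by 1.87 ± 0.425 on the log2 scale (adjusted p = 0.0171) and differed from thione 11 by -7.92 ± 0.301 (adjusted p = 2.43e-07, edgeR), while thione 11 exceeded DMSO by 9.79. The rise against DMSO was lost without DMSO replicate 1 or 2 (adjusted p = 0.161 and 0.0589), so AZR1 then passed only against thione 11. Its large difference from thione 11 passed in all 8 omissions.

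Of 30 genes of efflux and its regulators, 7 were lower than in thione 11 (5 or 6 in each omission of a library), with a median of -0.13, and 6 of the 7 were also lower than in DMSO. Of all features, 10.1% were called lower than in thione 11 and 8.39% lower than in DMSO. The calls of TPO1 and PDR16 against DMSO did not hold in every omission of a library. Their log2 differences from DMSO were -0.773 to -0.454 and -0.76 to -0.576 over the omissions. Those calls of TPO4 and YRM1 held in all 8. YOR1, an ABC transporter of the plasma membrane, had 98.7 and 104 CPM in CQ, 333 and 409 CPM in thione 11 and 142 and 151 CPM in DMSO. It fell by 1.87 on the log2 scale against thione 11 and by 0.53 against DMSO, and thione 11 exceeded DMSO by 1.34 (adjusted p = 0.012). The fall against DMSO was lost in 5 of the 8 omissions (adjusted p of up to 0.225), and the difference between the controls without either DMSO library or thione 11 replicate 2. The polyamine transporter TPO4 fell by 1.94 and by 1.12, with 10.6 and 12.1 CPM in CQ, 37.4 and 49.9 CPM in thione 11 and 23.9 and 25.5 CPM in DMSO. YRM1, a regulator of efflux genes, had about equal control levels and fell by 0.98 and by 0.96. PDR5 and SNQ2, well-known efflux pumps, passed in neither comparison.

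Phosphate genes were lower against thione 11 in 11 of 17 cases and against DMSO in 7, beside 10.1% and 8.39% of all features. Their medians were -0.86 and -0.60 on the log2 scale. The control itself differed, since 3 of the 17 were called higher in thione 11 than in DMSO with edgeR and 7 with DESeq2. Their median in that contrast was 0.593. Over all features, edgeR called 0.14% higher there, and DESeq2 called 84 features in either direction. Over the 8 omissions, 5 to 9 were lower than in thione 11, the 5 without thione 11 replicate 1 and 7 without CQ replicate 1. Against DMSO, 3 were lower without DMSO replicate 1 and 4 without CQ replicate 1. GIT1, a transporter of glycerophosphoinositol, had 17.8 and 14.6 CPM in CQ, 149 and 144 CPM in thione 11 and 43.8 and 45.1 CPM in DMSO. It fell by 3.17 against thione 11 and by 1.45 against DMSO, with thione 11 above DMSO by 1.72 (adjusted p = 0.0024), a call lost without either DMSO library (adjusted p = 0.0918 and 0.0707). SPL2, which dampens low-affinity phosphate uptake, behaved likewise, at -2.09 and -0.81, with thione 11 above DMSO by 1.27 (adjusted p = 0.0347), lost in 6 of the 8 omissions, as was its fall against DMSO without either DMSO library. PHO5, the secreted acid phosphatase, differed by -2.63 and -1.50, and its 212 and 142 CPM in thione 11 did not pass against the 89.1 and 71.8 CPM of DMSO (adjusted p = 0.083).

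PHO89, a sodium-phosphate symporter, went the other way. It had 117 and 104 CPM in CQ, 154 and 115 CPM in thione 11 and 47.6 and 39.7 CPM in DMSO. CQ and thione 11 overlapped, both above DMSO, so a rise of 1.34 on the log2 scale vanished to -0.28 (95% interval -0.69 to 0.13), and thione 11 against DMSO passed at 1.62 (adjusted p = 0.0127). PIR3, a cell-wall mannoprotein, had 95.3 and 130 CPM in CQ, 105 and 135 CPM in thione 11 and 42.6 and 40.9 CPM in DMSO. CRG1, a methyltransferase, had 30.6 and 31.9 CPM, 33.2 and 32.4 CPM, and 12.6 and 15.0 CPM in the same order. For both, the difference of CQ from thione 11 was near 0, at -0.09 (95% interval -0.50 to 0.32) and -0.07 (95% interval -0.45 to 0.31), and thione 11 against DMSO passed (adjusted p = 0.0177 and 0.0347). PHO89, PIR3 and CRG1 were the 3 vanished calls shown to differ between the controls, and in that contrast all 3 were lost without either DMSO library and in 3, 5 and 6 omissions in all.

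**Figure D4:**
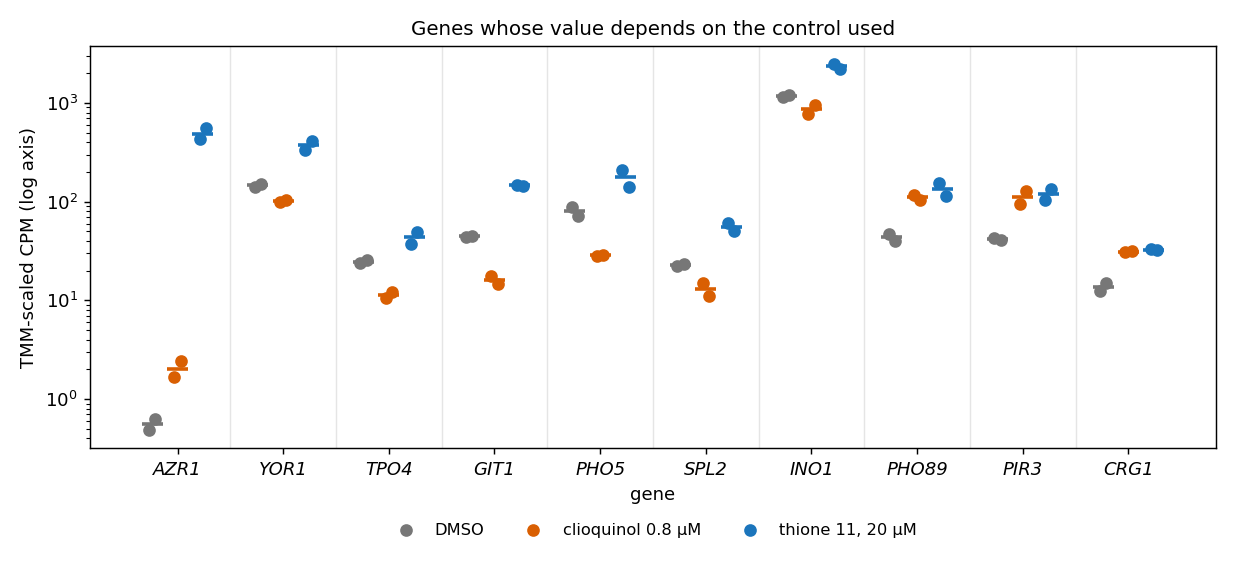
Points give the TMM-scaled CPM of each of 2 libraries per group on a log axis, and short lines the group mean, for 10 genes. AZR1, YOR1, TPO4, GIT1, PHO5, SPL2 and INO1 are highest in thione 11, whereas PHO89 overlaps between clioquinol and thione 11 and CRG1 and PIR3 lie together in these groups above DMSO.

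The calls of cell-wall mannoproteins as higher than in DMSO did not pass against thione 11. Of 14 members, 5 rose against DMSO, beside 4.92% of all features, and 0 against thione 11, beside 3.23%. The 0 of 14 is thus near the share over all features. Against thione 11, 10 of the 14 still lay above 0, 2 had an unadjusted p under 0.05 and DESeq2 called 0 higher. The median log2 difference was 0.71 against DMSO and 0.22 against thione 11. Without DMSO replicate 1, DMSO replicate 2 or CQ replicate 1, 1 rise vanished in place of 5, and without CQ replicate 2, 1 member rose against thione 11. Besides PIR3, the members that vanished, named after their values were seen, were HSP150, CRH1, TIR1 and TIR3. HSP150 had 1650 and 1139 CPM in CQ, 1059 and 1331 CPM in thione 11 and 731 and 770 CPM in DMSO, and the CQ and thione 11 libraries overlapped. For HSP150, CRH1, TIR1 and TIR3 thione 11 did not pass against DMSO, so the 2 comparisons are not shown to differ for them. Outside the list, NCW2, a cell-wall gene, stood at 1.14 against DMSO and 0.17 against thione 11, and YPL088W, a putative aryl-alcohol dehydrogenase, at 1.01 and 0.22.

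All 4 α-cell genes fell against DMSO and 2 of them against thione 11, with medians of -1.97 and -1.14 on the log2 scale. Among all features, 8.39% fell against DMSO and 10.1% against thione 11. Without DMSO replicate 1, 2 fell against DMSO, where MF(ALPHA)1 had an adjusted p of 0.0983, and STE3 was lost in 4 of the 8 omissions (adjusted p of up to 0.225). SAG1, the α-agglutinin, had 23.9 and 24.3 CPM in CQ, 76.7 and 72.7 CPM in thione 11 and 140 and 138 CPM in DMSO. It remained at -1.63 and -2.53, and MF(ALPHA)2 at -2.36 and -3.40. SST2, a regulator of pheromone signalling outside the list, vanished, from -1.19 to -0.56 (adjusted p = 0.0554).

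Changes seen only with thione 11 as control were mostly lower values in CQ. The 175 lower features had a median log2 difference of -0.89 against thione 11 and -0.47 against DMSO, 165 kept a negative sign against DMSO, and 101 had an unadjusted p under 0.05 there. INO1, inositol phosphate synthase and also a listed Zap1 target, had 775 and 943 CPM in CQ, 2469 and 2223 CPM in thione 11 and 1157 and 1203 CPM in DMSO. It differed by -1.45 ± 0.173 from thione 11 (adjusted p = 0.000369, edgeR) and by -0.46 from DMSO (adjusted p = 0.114), and thione 11 against DMSO did not pass (adjusted p = 0.083). ADH5, an alcohol dehydrogenase named after its values were seen, was the 1 feature of the 217 that passed in that contrast (adjusted p = 0.0421, lost in 6 of the 8 omissions), with 27.2 and 20.8 CPM in CQ, 45.9 and 50.4 CPM in thione 11 and 20.1 and 22.0 CPM in DMSO. The ammonium permease MEP2 and the phosphatase DDP1 differed from thione 11 by -1.22 and -1.29.

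Proteins of the mitochondrial ribosome translate the few mRNAs of the mitochondrial genome. Their genes made up 27 of the 217 features that passed only against thione 11. Counted by symbol after the values were seen, 48 of 67 tested genes were lower than in thione 11 and 22 lower than in DMSO, with medians of -0.89 and -0.61 on the log2 scale. Of them 21 remained, 1 vanished and 27 passed only against thione 11. Among all features, 10.1% were lower than in thione 11 and 8.39% lower than in DMSO, and 3.81% passed only against thione 11. Without thione 11 replicate 2, 16 were lower than in thione 11 and 3 passed only there, and without CQ replicate 2 it was 50 and 14. Against DMSO, 8 were lower without DMSO replicate 1, 4 without DMSO replicate 2, 12 without CQ replicate 1 and 36 without CQ replicate 2, and DESeq2 called 36. MRPL51 had 74.4 and 48.8 CPM in CQ, 160 and 219 CPM in thione 11 and 84.2 and 121 CPM in DMSO, a difference of -1.62 from thione 11. In thione 11 against DMSO, 0 of the 67 passed with edgeR and 1 with DESeq2, 17 had an unadjusted p under 0.05, and the median was 0.27. The CCAAT letters occur before 25 of these 67 genes (37.3%), and GCACCC before none.

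The 42 features higher only against thione 11 had medians of 0.70 and 0.42 on the log2 scale. FAA3, an acyl-CoA synthetase, had 113 and 123 CPM in CQ, 74.3 and 70.4 CPM in thione 11 and 95.6 and 89.0 CPM in DMSO. RNR1, the large subunit of ribonucleotide reductase, had 1247 and 1286 CPM in CQ, 824 and 734 CPM in thione 11 and 1043 and 967 CPM in DMSO. Both were lost without thione 11 replicate 2 (adjusted p = 0.0857 and 0.128). By contrast RNR2 and RNR4, the iron-holding small subunit and its partner, fell by 1.39 and by 2.11 and remained. Of 56 ribosome biogenesis genes, all lay above 0 against thione 11 with a median of 0.42, where the median against DMSO was 0.06, but only 2 passed, UTP5 and UTP18, each lost in 7 of the 8 omissions. Without CQ replicate 2, 19 passed, and DESeq2 called 8. The 2 of 56 are near the 3.23% of all features called higher than in thione 11. All 56 also lay above 0 with median-of-ratios scaling, and 47 to 56 did over the omissions.

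**Figure D5:**
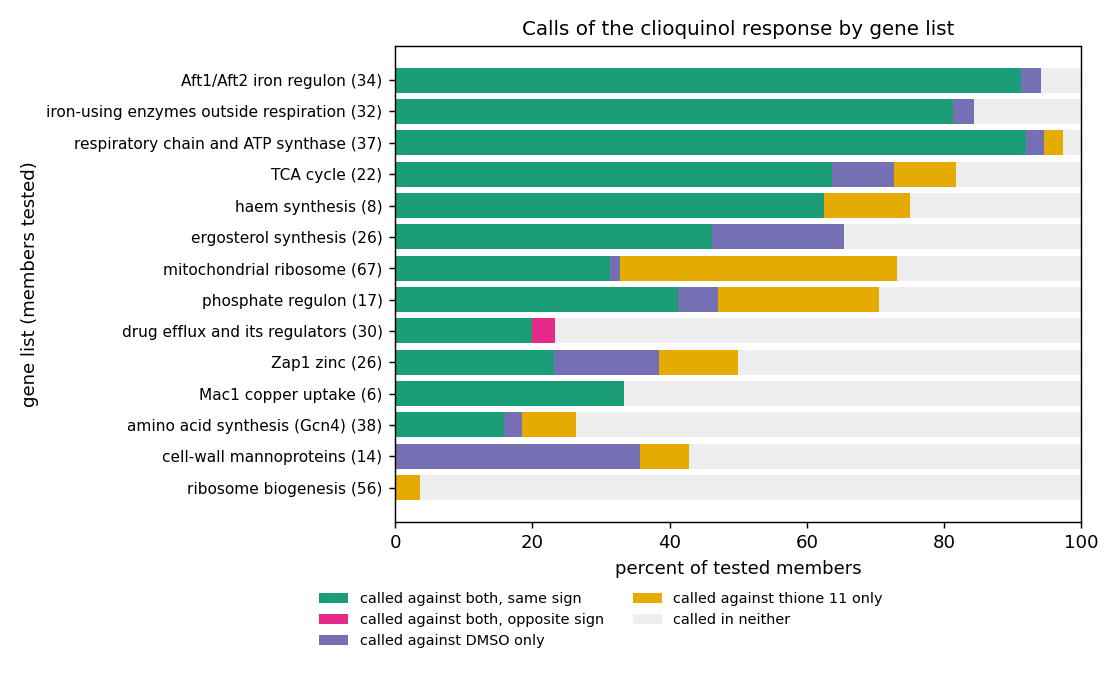
Each bar splits the tested members of a gene list, whose number is in brackets, by the comparison in which they passed, as a percent of members. The respiratory and iron lists are mostly features called against both controls, the cell-wall list has none of these, and the mitochondrial ribosome list is the one shown with the largest share called against thione 11 only, 27 of 67.

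The counts of this paragraph stand beside 3.23% of all features called higher than in thione 11 and 10.1% called lower. Of 23 heat-shock chaperones, 1 rose and 2 fell against thione 11, near the 13.4% of all features called. Without either DMSO library or CQ replicate 1, 1 chaperone fell, without thione 11 replicate 2 none fell and 2 rose, and without CQ replicate 2, 3 fell. HSP26, a small heat-shock protein, had 53.4 and 81.1 CPM in CQ, 13.5 and 15.5 CPM in thione 11 and 9.99 and 10.8 CPM in DMSO and remained. Of 24 Yap1 targets, 1 rose and 5 fell, and over the omissions 1 or 2 rose and 4 or 5 fell. GTO3, a glutathione transferase, had 67.7 and 56.0 CPM in CQ against 2.22 and 2.82 CPM in thione 11 and 0.918 and 1.72 CPM in DMSO, and remained at 4.61 and 5.59 on the log2 scale. OYE3 and ECM4 vanished, from 1.56 to 0.71 and from 1.16 to 0.75, and were named after their values were seen. Their calls against DMSO were lost without DMSO replicate 1 (adjusted p = 0.075 and 0.093). Of 38 genes of amino acid synthesis, 1 rose and 8 fell, LEU4 by 1.88, where 5 fell without thione 11 replicate 1. Of 21 genes of sulfate assimilation, 6 fell, but 2 to 4 did in each omission of a library. Of 10 hexose transporters, 3 rose, while 5 lay below 0 and the list's median log2 difference was -0.07. The call of HXT2 depended on single libraries, with log2 differences of 0.61 to 0.89 over the 8 omissions. Of 8 galactose genes, GAL7 fell, a call lost in 7 of the 8 omissions, and 2 fell without CQ replicate 2. Of 5 biotin genes, 1 rose and 4 fell, with 2 falls without thione 11 replicate 1. Among markers of other cell states, HSP26 was the 1 of 5 tested stationary-phase genes that rose. With edgeR and with DESeq2, 0 of 3 a-cell genes and 0 of 5 sporulation genes passed, and 0 and 1 of them had an unadjusted p under 0.05. The summed level of the stationary-phase markers was 110 to 137 CPM in CQ, 60.5 to 62.9 CPM in thione 11 and 55.1 to 55.2 CPM in DMSO. HSP26 alone supplied 53.4 and 81.1 CPM of it in CQ and 13.5 and 15.5 CPM in thione 11. Of the other markers, SPI1 lay higher in CQ than in thione 11, SNO1 and SPG4 lay lower, and SNZ1 and SPG1 overlapped. The part of these markers in the changes was not tested.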

How the data were processed

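RNA was measured in 8 libraries, 2 per group, grouped by the sample labels. The authors deposited raw read counts per feature and, beside them, normalized values, a signal that the authors made by dividing the counts by a size factor per library and that served only to read off those factors. The submitters' processing notes name the tools TopHat2 2.1.1, HTSeq and DESeq and the build sacCer3. Neither the annotation nor the strand setting is given in the sources used here. Reads from overlapping or antisense features, and from near-identical paralogues such as some PHO and HXT genes, may therefore not be separable. The growth protocol in the labels states millimolar doses and wild-type yeast, where the sample characteristics state micromolar doses and the deletions, which are used here. The table lists 7122 features, 725 with no count, and 6076 matched the RefSeq annotation of R64 (sacCer3).

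Counts were tested with edgeR 4.0.16 (R 4.3.3) by the two-sided quasi-likelihood test, with TMM scaling, filterByExpr, all 8 libraries in 1 fit and Benjamini-Hochberg adjustment over 5696 features at 0.05. A rise, a fall or a call means past that threshold, and SE is the log2 change divided by the square root of F. A change remained if called against both controls with 1 sign, vanished if called against DMSO only, and reversed if the signs differed. The members, the 29 gene lists and the rules for naming genes were chosen with earlier results of these data known. Named genes were the 12 largest changes each way, 8 vanished and 8 per direction called only against thione 11 (average log2 CPM of at least 3), up to 4 per list, and any metal or efflux gene. The alternatives included DESeq2 1.42.0. The procedure was tested on simulated data. A count of 0 allows up to 3 counts, 0.158 to 0.248 CPM by library, and such limits and intervals cover counting error only.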

Additional observations from a re-analysis of the deposited data

How the results depend on the processing

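With 2 libraries per group, the counts near the threshold depend on single libraries and settings, while no named gene that passed changed sign under an alternative that was run. Leaving out 1 library gave 458 to 1126 calls against thione 11 (100 to 432 higher, 358 to 694 lower), 367 to 1419 against DMSO and 1 to 18 for thione 11 against DMSO. It gave 334 to 888 calls that remained, 27 to 530 that vanished, 0 to 1 that reversed and 41 to 307 made only against thione 11. The lone library left in a group is then assumed to vary like the others. Of the 762 calls against thione 11, 393 passed in all 8 omissions, and the class was kept in all 8 by 276 of 544 remaining, 8 of 213 vanished and 14 of 217 calls made only against thione 11. Of 155 named genes called against thione 11, 113 passed in all 8 omissions. Of the 9 called for thione 11 against DMSO, 1 did, AZR1.

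An adjusted p under 0.01 gave 444 calls against thione 11 (90 higher, 354 lower), 399 against DMSO and 2 between the controls, with 321 that remained, 78 that vanished, 0 that reversed and 123 made only against thione 11. An adjusted p under 0.1 gave 293 higher calls, 19 between the controls, 393 that vanished and 3 that reversed. A fold of at least 2 gave 424 calls (93 higher, 331 lower) and 412 against DMSO, with 307 that remained, 104 that vanished and 116 made only against thione 11. Each pair of groups fitted alone gave 107 higher calls, 0 that reversed and 126 made only against thione 11. DESeq2 gave 913 calls against thione 11, 84 between the controls and 2 that reversed. The cause of these shifts was not tested beyond the stricter or looser thresholds themselves. Median-of-ratios scaling, no filter on low counts and RefSeq features alone kept these counts over all features within 1.5 times, though not every count within a small list, with 767, 777 and 775 calls against thione 11. The numbers of the replicates were not taken to pair the samples, since the deviations of same-numbered libraries correlated at over 0.1 in 4 of 6 pairs of groups (0.215 to 0.43, among them 0.43 for DMSO and thione 11) but at -0.153 for DMSO and CQ and -0.0864 for CQ and thione 11. With the replicate block there were 985 calls against thione 11 (288 higher), 54 between the controls and 326 made only against thione 11, and of 293 vanished calls 23 passed between the controls, where 3 of 213 did without it. Other choices did not end the differences of FIT3, TIS11, CYC1 or AZR1 from thione 11. Depth limits the genes of few counts, such as LSO1 and FRE5.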
